A study of Homo sapiens with 14 samples.

Results

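Chromatin immunoprecipitation followed by sequencing (ChIP-seq) of the NF-κB subunits p50 and p52 was compared, region by region, in L1236, an established line of Hodgkin lymphoma (HL) cells that received no treatment. All 14865 of the 14865 regions of the series were used, and each is a stretch of the genome (build hg18) in which at least 1 of the 4 subunits p50, p52, RelB and RelA was called as a peak. The compared value is the log2 p50/p52 ratio, for which the p50 reads plus 1 of a region were divided by all p50 reads in the regions and then by the same quotient for p52. Chromatin was precipitated in 2 replicates per subunit. The p50 replicates were both made with the same goat antibody, whereas p52 replicate 1 was made with a mouse and p52 replicate 2 with a rabbit antibody. Reads were deposited with the replicates merged, so that each region has 1 p50 and 1 p52 read count, from which replicate error cannot be estimated. A score per replicate was deposited for called peaks only and is described below over its 4 pairings, without a test, and no p-value is given. A difference between p50 and p52 cannot be told apart from a difference between their antibodies, and a ratio of 0 stands for an equal share of both libraries, not for equal amounts of bound protein. Cells of a single line were studied, and which replicates came from separate cultures is not given in the labels.

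The p50 and p52 subunits arise by processing of the precursors p105 (gene *NFKB1*) and p100 (gene *NFKB2*). Both carry the Rel homology domain that binds DNA at κB sites but lack a transactivation domain of their own, which RelA, RelB and c-Rel contribute as dimer partners. The dimer p50-RelA is the prototype of the canonical and p52-RelB that of the non-canonical pathway, and both pathways are known to be constitutively active in HL cells. Binding at a transcription start site (TSS) marks promoters, and binding far from any TSS often marks enhancers.

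Promoter sequences of some listed genes with contrasting ratios at the TSS are given first, as examples. Of 40 genes of the functional lists used here whose TSS lay in a region, 19 had a single entry in the RefSeq promoter table (GRCh38.p14), and the 3 with the lowest and the 3 with the highest ratio are shown. Each sequence runs 5′ to 3′ on the gene's strand from 250 bases before to 50 bases after the RefSeq start. Capitals mark matches on either strand to the 10-base κB consensus. Such a match was present in 2317 of 22114 RefSeq promoters of genes with a single entry (10.5%) and in 9 of the 19 (47.4%), and a match is a description of letters, not of a bound site. The positions are of GRCh38.p14 and cannot be set against the hg18 positions of the regions. The promoter of *BIRC3*, which encodes the apoptosis inhibitor cIAP2, holds 2 matches (chr11:102317234-102317533, plus strand, log2 ratio of the TSS region -0.84).
BIRC3: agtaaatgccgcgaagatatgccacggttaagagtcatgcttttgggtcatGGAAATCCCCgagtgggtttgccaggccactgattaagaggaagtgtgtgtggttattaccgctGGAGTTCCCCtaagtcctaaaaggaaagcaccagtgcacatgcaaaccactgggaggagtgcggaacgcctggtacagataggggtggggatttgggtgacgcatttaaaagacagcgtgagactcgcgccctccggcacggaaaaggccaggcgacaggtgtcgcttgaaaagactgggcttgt
The promoter of *BATF*, an AP-1 factor of lymphocytes, holds none (chr14:75522219-75522518, plus strand, log2 ratio -0.38).
BATF: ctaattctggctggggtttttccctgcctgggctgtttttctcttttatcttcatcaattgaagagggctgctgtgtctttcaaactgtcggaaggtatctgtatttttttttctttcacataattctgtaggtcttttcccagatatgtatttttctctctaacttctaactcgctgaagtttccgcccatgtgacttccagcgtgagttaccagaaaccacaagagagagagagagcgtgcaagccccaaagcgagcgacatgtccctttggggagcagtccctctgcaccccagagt
The promoter of *NFKBIA*, which encodes the NF-κB inhibitor IκBα, holds 1 (chr14:35404700-35404999, minus strand, log2 ratio -0.37).
NFKBIA: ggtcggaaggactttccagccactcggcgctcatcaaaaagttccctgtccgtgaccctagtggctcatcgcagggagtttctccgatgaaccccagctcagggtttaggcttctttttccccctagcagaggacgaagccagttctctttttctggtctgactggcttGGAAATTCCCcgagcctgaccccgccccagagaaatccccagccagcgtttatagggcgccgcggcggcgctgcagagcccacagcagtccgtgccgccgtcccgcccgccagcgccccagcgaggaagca
On the p50 side, the promoter of *CSF2*, the gene of the cytokine GM-CSF, holds none in this window (chr5:132073539-132073838, plus strand, log2 ratio 1.46).
CSF2: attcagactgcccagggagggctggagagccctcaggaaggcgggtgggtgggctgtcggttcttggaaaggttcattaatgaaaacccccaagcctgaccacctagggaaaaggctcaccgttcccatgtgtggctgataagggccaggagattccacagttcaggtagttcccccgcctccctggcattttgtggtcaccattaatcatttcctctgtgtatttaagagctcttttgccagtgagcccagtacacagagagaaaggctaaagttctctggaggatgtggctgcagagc
The promoter of *CDKN1A*, which encodes the cell cycle inhibitor p21, holds none (chr6:36678464-36678763, plus strand, log2 ratio 1.66).
CDKN1A: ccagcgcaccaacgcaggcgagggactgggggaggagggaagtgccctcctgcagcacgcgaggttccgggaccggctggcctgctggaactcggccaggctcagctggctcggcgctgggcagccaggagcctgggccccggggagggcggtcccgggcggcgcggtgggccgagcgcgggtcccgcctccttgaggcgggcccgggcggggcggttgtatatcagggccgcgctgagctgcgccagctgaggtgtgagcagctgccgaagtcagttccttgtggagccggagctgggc
The promoter of *IL2RA*, the gene of the IL-2 receptor α chain, holds 2 that overlap (chr10:6062318-6062617, minus strand, log2 ratio 1.84).
IL2RA: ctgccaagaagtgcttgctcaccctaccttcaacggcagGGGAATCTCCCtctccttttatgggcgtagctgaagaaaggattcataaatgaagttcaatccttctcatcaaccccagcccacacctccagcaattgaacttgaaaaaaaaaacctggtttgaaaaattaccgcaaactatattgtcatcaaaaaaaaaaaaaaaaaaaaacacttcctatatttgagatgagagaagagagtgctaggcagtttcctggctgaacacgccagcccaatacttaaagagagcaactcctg
Matches thus occurred among the genes with low and those with high ratios, and none of the low ratios reached -1. The dinucleotide CG was found 15 times in the *BIRC3*, 7 times in the *BATF* and 22 times in the *NFKBIA* sequence, against 4 in *CSF2*, 29 in *CDKN1A* and 4 in *IL2RA*, with a median of 12 over the promoters searched.

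The p50 reads in all regions summed to 1654137 and the p52 reads to 1810792. A region held between 0 and 3246 p50 reads with a median of 78, and between 0 and 4821 p52 reads with a median of 77. The authors called a p50 peak in 10975 regions and a p52 peak in 10893. The log2 ratio was spread widely around a median of 0.03, with quartiles at -0.64 and 0.83, an SD over regions of 0.99 and extremes at -4.61 and 4.17. The distribution was continuous, and 9846 regions (66.2%) lay between -1 and 1. A ratio of 1 or more, called the p50 side here, was found in 3010 regions (20.2%), and a ratio of -1 or less, the p52 side, in 2009 (13.5%). Nothing separated the p50 side from its neighbours, since 212 regions lay between 1 and 1.05 and 232 between 0.95 and 1. Ratios beyond 2 were found in 336 regions and ratios beyond -2 in 167.

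The ratio depended on the distance to a TSS. The 2447 regions that overlapped a TSS had a median log2 ratio of 0.99 (95% interval of the median over regions 0.96 to 1.01), against -0.26 (-0.28 to -0.24) in the 9262 regions over 10 kb from a TSS. The difference was 1.25, more than the SD of the ratio over all regions. In TSS regions the background of p50-side ratios was 49% (1198 regions) and that of p52-side ratios 0.368% (9 regions). Over 10 kb away the p50 side made up 12.9% (1191 regions) and the p52 side 18% (1668 regions). The change between these classes was gradual. The 542 regions up to 1 kb from a TSS without overlap had a median of 0.54 (0.45 to 0.63), and the 2556 regions between 1 and 10 kb one of 0.01 (-0.04 to 0.06). The median then fell to -0.19 at 10 to 50 kb (n = 4578), -0.28 at 50 to 100 kb (n = 1991) and -0.35 over 100 kb (n = 2693), and the intervals of the medians overlapped only between 50 to 100 kb and over 100 kb. The quartile ranges of the classes did not meet, as the upper quartile of the regions over 10 kb away was 0.46 and the lower quartile of the TSS regions 0.53, whereas the tails overlapped. The sign of the distance had little bearing on the ratio. Within 10 kb the median was 0.10 on both sides of the TSS (n = 1379 and 1719), and over 10 kb it was -0.28 for negative and -0.25 for positive distances. The 58 regions without a TSS within the authors' window had a median of -0.35 (-0.56 to -0.24).

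**Figure D1:**
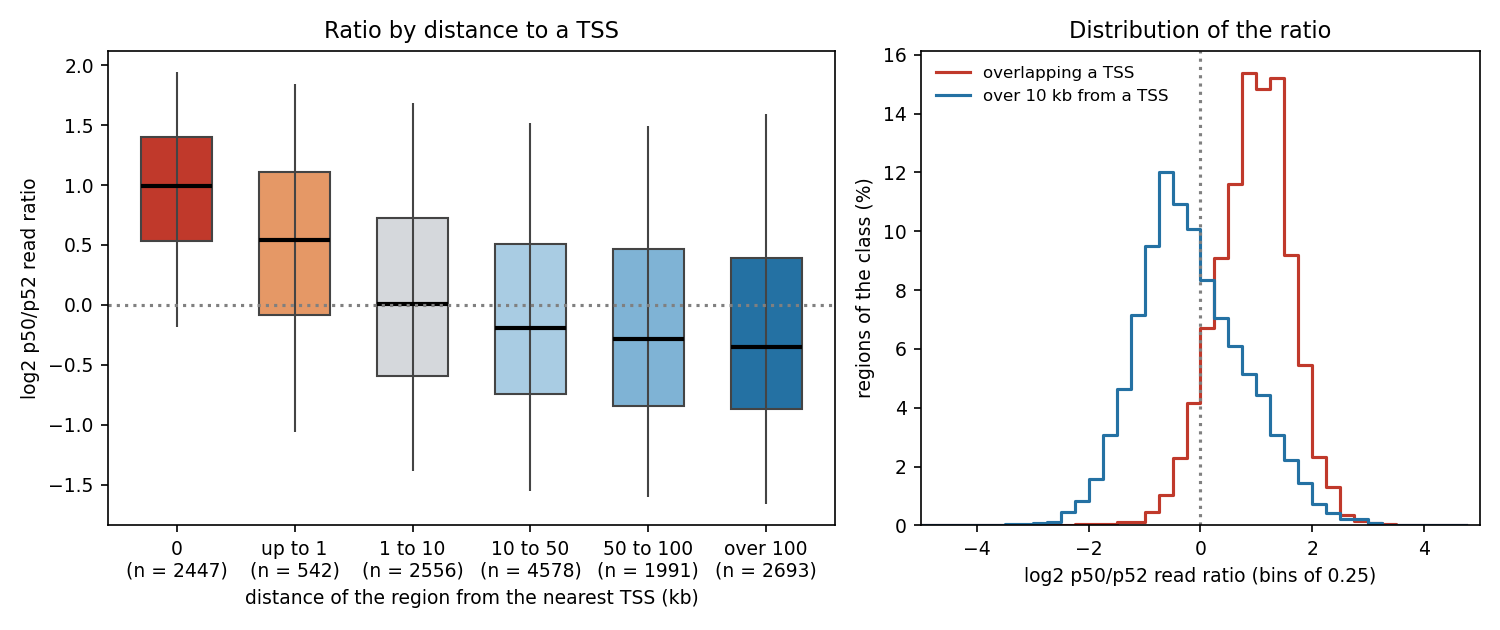
Log2 p50/p52 read ratio of the regions by distance to the nearest TSS in kb (left; boxes span the quartiles, the black line is the median and the thin lines reach from the 5th to the 95th percentile of regions) and its distribution in both classes of regions as percent of the class per bin of 0.25 (right). The median fell from 0.99 at a TSS to -0.35 over 100 kb away, while the distributions of the classes overlapped between about -1 and 2.

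The read densities of each subunit were compared between the classes. The median density of p50 was 105 reads per kb of region at a TSS and 84.9 over 10 kb away, whereas that of p52 was 58.1 at a TSS and 101 over 10 kb away. RelB had 21.4 and 20.7 reads per kb, and RelA 18.7 and 14.9. Only for p52, of the 4 subunits, was the density lower at a TSS. With RelA as the common denominator, the median log2 ratio of p50 to RelA was 0.09 at a TSS and 0.02 over 10 kb away, a difference of 0.07. The ratio of p52 to RelA was -0.87 and 0.19, a difference of -1.07. With RelB as denominator the differences were 0.34 for p50 and -0.83 for p52. Called peaks followed the reads, as 96.1% of the TSS regions had a p50 peak and 53.1% a p52 peak, against 67.2% and 78.3% over 10 kb away. These comparisons share the p50 and p52 reads with the ratio itself. A RelA peak was called in 492 and a RelB peak in 3984 of the 14865 regions. In most regions the reads of the denominator thus lay below the peak threshold, and the part of non-specific reads in them was not tested.

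**Figure D2:**
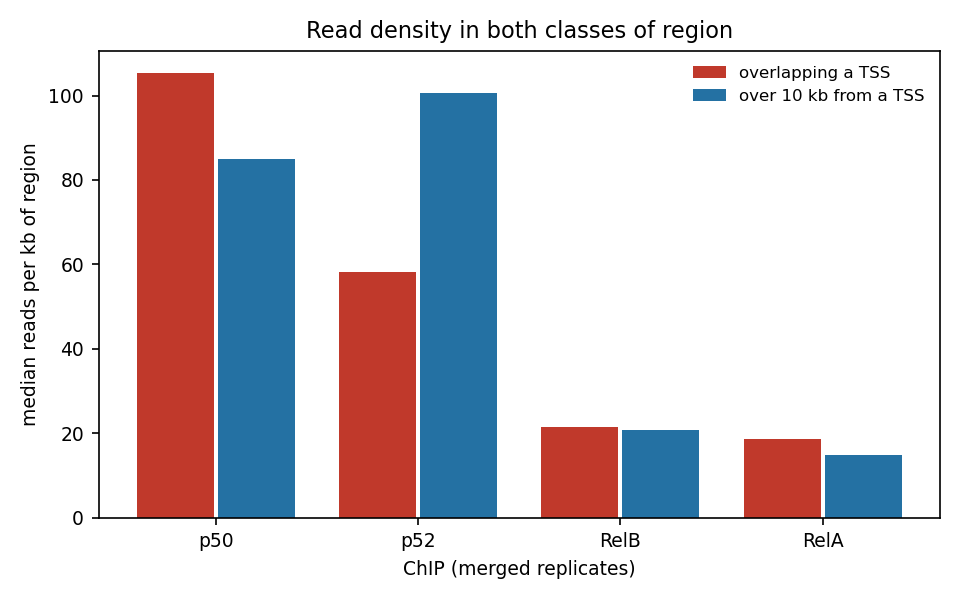
Median number of merged-replicate ChIP-seq reads per kb of region for the 4 subunits, in 2447 regions that overlap a TSS and 9262 regions over 10 kb from a TSS. The p52 bars run from 58.1 at a TSS to 101 away from it, opposite to the p50 bars at 105 and 84.9.

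The position dependence was also present where neither p50 nor p52 had been called. There were 640 such regions, which owed their place in the series to RelB or RelA peaks and held a median of 27 p50 and 30 p52 reads. Among them the 34 TSS regions had a median ratio of 1.00 (0.59 to 1.42) and the 495 regions over 10 kb away one of -0.26 (-0.32 to -0.15), a difference of 1.26. The step of the ratio between TSS and distant regions was thus as large in regions below the authors' peak threshold for both subunits as in all regions. Input reads per region were not analysed here, so the part of non-specific reads in the ratio was not tested. In the 7643 regions called for both subunits, the difference was smaller at 0.80, from a median of 0.62 at a TSS (n = 1238) to -0.18 over 10 kb away (n = 4706).

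The signal values of the single replicates, a score the authors entered into their reproducibility analysis, were the only measure that did not merge replicates. In the regions called for both subunits, each of the 2 p50 values was divided by each of the 2 p52 values and the log2 ratio centred on its median. The difference between TSS regions and regions over 10 kb away was 0.90, 0.53, 1.12 and 0.71 in the 4 pairings. It was thus positive with every pairing and varied by about as much as its own lowest value. Pairings with no replicate in common had a Spearman's correlation of 0.58 and 0.51 across these regions, which are not independent replicates. The p52 values differed more by position than the p50 values, since the log2 ratio of the first to the second value shifted between TSS and distant regions by -0.36 for p52 and by -0.16 for p50. Which value belongs to which p52 antibody is not told by the table.

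Lying inside or outside a gene went with little difference in the ratio, whereas outside genes the ratio fell with the distance to the gene. Among the regions over 10 kb from a TSS, the 4348 inside genes had a median ratio of -0.28 (-0.32 to -0.25) and the 4914 outside genes one of -0.24 (-0.27 to -0.21). The difference of -0.04 was close to the SD of 0.035 over the pairings of replicate signal values. Outside genes the median ratio fell with the distance to the gene, from -0.05 (-0.16 to 0.06) at up to 10 kb (n = 544) through -0.19 (-0.24 to -0.14) at 10 to 100 kb (n = 3054) to -0.40 (-0.46 to -0.34) over 100 kb (n = 1316). A region over 100 kb from any gene is also over 100 kb from any TSS. The fall was not separated from that with the distance to a TSS, and the part of either distance was not tested. The class over 100 kb from a gene also had the highest share of RelB peaks, 35.6% against 24.4% at up to 10 kb and 27.3% at 10 to 100 kb.

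Width had opposite relations to the ratio over all regions and within the position classes. Regions were between 273 and 8787 bp wide. Over all of them Spearman's correlation of ratio and width was 0.06 (n = 14865, Pearson's r with log2 width 0.06). Within TSS regions it was -0.32 (n = 2447) and over 10 kb away -0.11 (n = 9262). TSS regions were wide, with a median of 1358 bp against 778.5 bp, and made up 38.9% of the widest quartile (1235 to 8787 bp) but 2.44% of the narrowest (273 to 618 bp). From the narrowest to the widest quartile the median ratio of TSS regions was 1.26, 1.38, 1.13 and 0.87, and that of distant regions -0.06, -0.28, -0.36 and -0.33. In distant regions the p50 side shrank from 629 of 2858 regions in the narrowest to 96 of 1545 in the widest quartile. The p52 side shrank as well, from 547 of 2858 to 197 of 1545. Of all distant regions, 12.9% were on the p50 and 18% on the p52 side. The narrowest distant regions held medians of 40 p50 and 43 p52 reads, against 168 and 217 in the widest. The part of read number in these shares was not tested.

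The number of reads separated the TSS regions further. TSS regions in the lowest quartile of p50 and p52 reads (8 to 147 reads together) had a median ratio of 1.39 (1.35 to 1.45), and the following quartiles had 1.14, 0.96 and, at 367 to 5488 reads, 0.51 (0.44 to 0.56). Spearman's correlation of ratio and reads was -0.50 at a TSS and -0.09 over 10 kb away, and ratio and reads share their counts. The peak calls that brought regions into the series differed along this order, since 88.8% of the TSS regions in the lowest quartile had a p50 and 13.3% a p52 peak, against 99.8% and 94.0% in the highest. The part of these calls in the trend was not tested. In distant regions the quartiles had medians of -0.17, -0.21, -0.18 and -0.40, so that the difference between the classes narrowed from the weakest to the strongest regions but did not close.

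**Figure D3:**
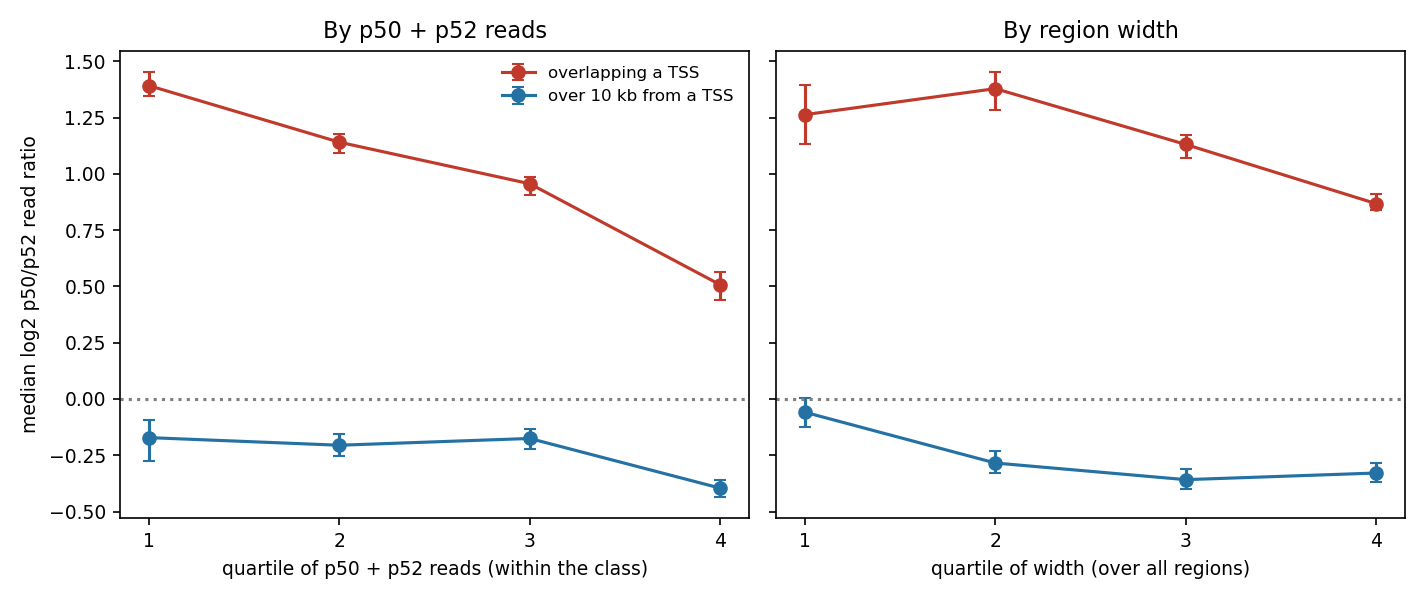
Median log2 p50/p52 read ratio in quartiles of p50 plus p52 reads (left, quartiles within each class) and of region width (right, quartiles over all regions), for regions overlapping a TSS and regions over 10 kb from a TSS. Bars are 95% intervals of the median over regions, and the TSS curve falls from 1.39 to 0.51 with reads and stays above the distant curve in all quartiles.

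RelB, whose reads do not enter the ratio, varied along it. When the regions were ordered by ratio and cut into 10 groups of about equal size, a RelB peak was present in 22.3% of the lowest group, in 39.0% of group 4 from below and in 5.18% of the highest. TSS overlap ran the other way, from 0.403% in the lowest group to 40.3% in the highest. Regions with a RelB peak had a lower ratio in both position classes. At a TSS the median was 0.53 (0.47 to 0.58) in 634 regions with and 1.14 (1.11 to 1.17) in 1813 regions without a RelB peak. Over 10 kb away it was -0.45 (-0.49 to -0.43) in 2513 regions with and -0.14 (-0.17 to -0.11) in 6749 without. TSS regions with a RelB peak also had more reads, with medians of 219.5 p50 and 171.5 p52 reads against 127 and 65. Distant regions with a RelB peak had more as well, with medians of 103 p50 and 158 p52 reads against 57 and 66. The part of these differences in the result was not tested. A RelA peak, far rarer with 492 in all, went with a median of 0.41 (0.21 to 0.58) in 116 TSS regions and of -0.40 (-0.49 to -0.32) in 285 distant ones.

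**Figure D4:**
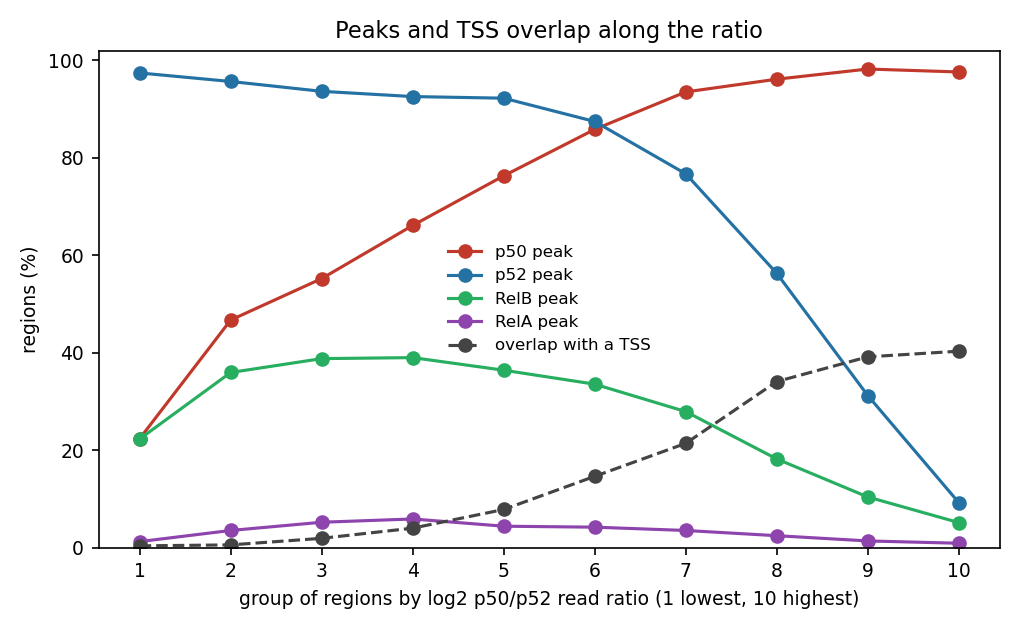
Percent of regions with a called p50, p52, RelB or RelA peak and percent overlapping a TSS (dashed), in 10 groups of the 14865 regions ordered by log2 p50/p52 read ratio. The RelB curve is highest in group 4 (39.0%) and lowest in group 10 (5.18%), where TSS overlap reaches 40.3%. The p50 and p52 curves share their reads with the ordering.

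The authors' peak calls divided the ratio as their shared reads imply. Median ratios were 1.29 in 3158 regions called for p50 alone, -0.88 in 2936 called for p52 alone and 0.16 in 4732 called for both without RelA and RelB. With RelB added to both the median was -0.24 (n = 2539), and with all 4 subunits -0.27 (n = 349). Calls and ratio did not coincide, since regions called for p50 alone reached down to -0.52 and regions called for p52 alone up to 1.03. Where both were called, the summits of p50 and p52 lay close to each other, with a median distance of 8 bp in the 617 regions on the p50 side, 15 bp in the 557 on the p52 side and 11 bp in the 6469 between. Within 100 bp lay 586, 537 and 6018 of them. These distances cover only 617 of the 3010 regions on the p50 side and 557 of the 2009 on the p52 side. Peaks that did not overlap were kept as separate regions, so summits far apart are left out. Whether a tilt of the ratio goes with a separate position of the peak can therefore not be told.

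At the genes of NF-κB itself the ratio was near 0. All 5 subunit genes had a region over their TSS, and their ratios ran from -0.33 to 0.48, with none on the p50 side against 49% of all TSS regions. *NFKB2*, the gene of p100/p52, had 947 p50 and 1152 p52 reads (chr10:104143410-104146372) and a log2 ratio of -0.15 (95% counting interval -0.28 to -0.03). *REL*, the gene of c-Rel, had 822 and 911 reads (chr2:60961113-60964105) and a ratio of -0.02 (-0.15 to 0.12). At *RELB* the 232 p50 and 319 p52 reads (chr19:50196148-50197531) gave -0.33 (-0.57 to -0.09). These genes thus lay at or slightly below 0. *NFKB1*, the gene of p105/p50, had 303 and 238 reads (chr4:103641169-103642814) and a ratio of 0.48 (0.23 to 0.72). *RELA* had 189 and 150 reads (chr11:65186640-65188132) and a ratio of 0.46 (0.16 to 0.77). The intervals of *NFKB1* and *RELA* did not meet those of *NFKB2* and *RELB*, and they cover counting error only. Over all 16 regions of the subunit genes the median was -0.21.

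Inhibitors and feedback regulators of NF-κB spread more. At *NFKBIA* 1152 p50 and 1626 p52 reads (chr14:34941193-34944892) gave a ratio of -0.37 (-0.48 to -0.26), and at *BCL3*, an atypical IκB that binds p50 and p52 homodimers, 820 and 785 reads (chr19:49941696-49944677) gave 0.19 (0.05 to 0.33). The lowest TSS ratio of all listed genes was at *BIRC3*, with 256 p50 and 504 p52 reads (chr11:101692401-101693877) and a ratio of -0.84 (-1.06 to -0.63). *BIRC3* therefore lay clearly below 0, though not past -1. *CD40*, a receptor that activates both pathways, had 402 and 482 reads (chr20:44179615-44181710, ratio -0.13). Fold enrichment over input at its summits was further apart, with 13.5 for p50 and 36.3 for p52. *TNFAIP3*, the gene of the deubiquitinase A20, had 420 and 411 (chr6:138228897-138231250, ratio 0.16). *TRAF1* had 389 and 329 (chr9:122730185-122731673, ratio 0.37). The highest of this list was *TNIP1*, the gene of an A20-binding protein, with 423 and 297 reads (chr5:150439391-150441404, ratio 0.64). Of the 37 regions of the 6 feedback genes, 8 were on the p52 side and 1 on the p50 side, against 13.5% and 20.2% of all regions. Of the 21 over 10 kb from a TSS 7 were on the p52 side, against 18% of all such regions. *TNFAIP3* alone held 18 of the 37 regions, 15 of the 21 distant ones and 6 of the 8 on the p52 side. *TNIP1*, *BIRC2* and *CD40* had none on the p52 side.

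At the 3 apoptosis regulators with a region over the TSS, the mean of the distant regions was lower than the TSS ratio. *BCL2L1*, the gene of the survival protein Bcl-xL, had 639 p50 and 453 p52 reads at the TSS (chr20:29773403-29775576, ratio 0.63), but its 1 distant region had a ratio of -0.86. At *CFLAR*, the gene of the caspase inhibitor c-FLIP, the TSS region had 305 and 329 reads (chr2:201688872-201692199) and a ratio of 0.02 (-0.20 to 0.25), and the mean of 3 distant regions was -1.02. *BCL2* had 106 and 58 reads (chr18:59137499-59139286) and a ratio of 0.99 (0.54 to 1.46), with a mean of -0.02 over 7 distant regions. Single distant regions of *BCL2* went up to 1.05, above its TSS. Of the 20 regions of the list, 2 were on the p50 side and 2 on the p52 side, shares below those of all regions (20.2% and 13.5%).

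Among AP-1 genes, *JUNB* had 875 p50 and 891 p52 reads (chr19:12762930-12766215, ratio 0.10), and *BATF* 287 and 408 (chr14:75055803-75058947, ratio -0.38). At *BATF* the mean of its 6 distant regions, -0.45, was close to the TSS ratio. The 23 regions of the 6 AP-1 and ATF genes had a median of -0.29. In the JAK-STAT list, *STAT5A* had 326 and 219 reads (chr17:37692808-37696008, ratio 0.70).

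B cell transcription factors held 72 regions, the most of all lists, and 60 of them lay over 10 kb from a TSS. Of the 72 regions 20 (27.8%) were on the p52 side and none on the p50 side, against 13.5% and 20.2% of all regions. Of all distant regions 12.9% were on the p50 side. Of the 60 distant regions 19 were on the p52 side, against 18% of all distant regions, 7 of 21 at the feedback genes and 6 of 20 at the costimulation genes. All but 1 of the 20 belonged to *FOXP1*, *ETS1* and *PRDM1*. At the TSS the ratios of the list were higher, with a median of 0.31 over 5 regions, but below the 0.99 of all TSS regions. None of the 5 was on the p50 side, against 49% of all TSS regions. *FOXP1*, a forkhead repressor, had 350 p50 and 243 p52 reads (chr3:71714526-71716897, ratio 0.66). *LEF1*, a Wnt pathway factor, had 141 and 95 (chr4:109308002-109309888, ratio 0.70), and *TCF3*, which encodes the E2A proteins, 350 and 309 (chr19:1600929-1604322, ratio 0.31). These 3 promoters were above 0. *IRF5*, an interferon regulatory factor, was below it with 1127 and 1414 reads (chr7:128364082-128368710, ratio -0.20). *PRDM1*, the gene of the plasma cell factor Blimp-1, had 45 and 68 (chr6:106640541-106641080) and a ratio of -0.45 (-1.01 to 0.08). The distant regions of *PRDM1* went further, with a mean of -1.44 over 7 regions and 5 of its 8 regions on the p52 side. *FOXP1* had 8 of 18 regions on the p52 side and a mean of -0.81 over 16 distant regions. *ETS1*, a lymphoid ETS factor without a TSS region, had 6 of 21 regions on the p52 side. Its region with the most reads held 361 p50 and 684 p52 reads (chr11:127857275-127859194).

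Chemokine and cytokine genes included the strongest p50 tilt at a TSS among the immune lists. The TSS regions of the 9 genes that had one ran from -0.72 to 1.84 with a median of 0.29, and 2 were on the p50 side, against 49% of all TSS regions. *LTA*, the gene of lymphotoxin α, had the most reads at the TSS among the listed genes, 1531 for p50 and 1455 for p52 (chr6:31646555-31651829, ratio 0.20). *CSF2* had 678 and 269 (chr5:131436547-131443033) and a ratio of 1.46 (1.26 to 1.67). At *IL2RA*, among the promoters shown above, 81 p50 and 24 p52 reads (chr10:6143903-6144748) gave 1.84 (1.23 to 2.54) and no p52 peak was called. Both genes stood apart from the rest of the list. *CCR7*, the receptor that guides lymphocytes to lymph nodes, had 320 and 268 reads (chr17:35972415-35975670, ratio 0.39), the chemokine *CCL5* 219 and 196 (chr17:31231054-31231987, ratio 0.29) and *IL21R* 214 and 194 (chr16:27320049-27322809, ratio 0.27). *CCL3*, named as the lowest of the list after its value was seen, had 70 and 127 reads (chr17:31441210-31442488) and a ratio of -0.72 (-1.15 to -0.31). *IL6*, a cytokine without a TSS region, had 14 regions that ran from -1.21 to 1.33, with 4 on the p52 and 2 on the p50 side (13.5% and 20.2% of all regions).

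Of the costimulation and adhesion genes, *CD70* (375 p50 and 440 p52 reads, chr19:6541369-6542859) and *TNFRSF9* (258 and 282, chr1:7923248-7924293) had TSS ratios of -0.10 and 0.00, and *ICAM1* (477 and 351, chr19:10240940-10244039) of 0.57. *CD44*, a hyaluronan receptor, had 5 of 11 regions on the p52 side and 1 on the p50 side, against 13.5% and 20.2% of all regions. Of the *CD44* regions 9 were distant, with a mean of -1.13, and the p52 side made up 18% of all distant regions. *CD44*, without a TSS region, was named outside the rule given below. Of the other genes of the list, *CD86* had 1 of 5 regions on the p52 side. None was found there at *CD70*, *CD80*, *CDH1*, *ICAM1* and *TNFRSF9*. Of the 7 cell cycle genes only *CDKN1A* could be given a symbol, so the others were not looked up. It had 94 and 32 reads at the TSS (chr6:36754078-36755182) and a ratio of 1.66 (1.11 to 2.26). Of the housekeeping genes, *ACTB*, the gene of β-actin, had 472 and 116 reads (chr7:5533795-5537236) and the highest TSS ratio of all listed genes, 2.15 (1.86 to 2.45). *B2M*, the light chain of MHC class I, had 499 and 539 (chr15:42789837-42792657, ratio 0.02). For the ribosomal protein list no symbol could be matched.

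Taking the 10 immune, signalling and cell cycle lists without the housekeeping genes, 38 TSS regions had a median ratio of 0.23 (quartiles -0.11 and 0.55), and 3 of them (7.89%) were on the p50 side. The 2407 other TSS regions had a median of 1.00 with 49.6% on the p50 side. They are not known to be free of list genes, since only 64 of the 126 list genes had a symbol and most of these regions had none. The listed regions had more reads, with a median of 613.5 against 221, and 27 of 38 had a RelB peak against 25.2%. Among the other TSS regions, the 177 with at least 613.5 reads had a median of 0.19 with 6.78% on the p50 side and 79.7% with a RelB peak. These 177 had more reads than the listed regions, with a median of 804. Within the highest quartile of reads at a TSS, the ratio was lower in the listed regions, with a median of 0.18 and 3.57% on the p50 side (n = 28), than in the others, with 0.53 and 17.5% (n = 582). In that quartile the listed regions again had more reads, 740 against 504.5 in the median. Over 10 kb from a TSS, 178 regions of these genes had a median of -0.59, with 45 on the p52 side and 5 on the p50 side, against -0.25, 1623 and 1185 in the 9081 other distant regions.

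**Figure D5:**
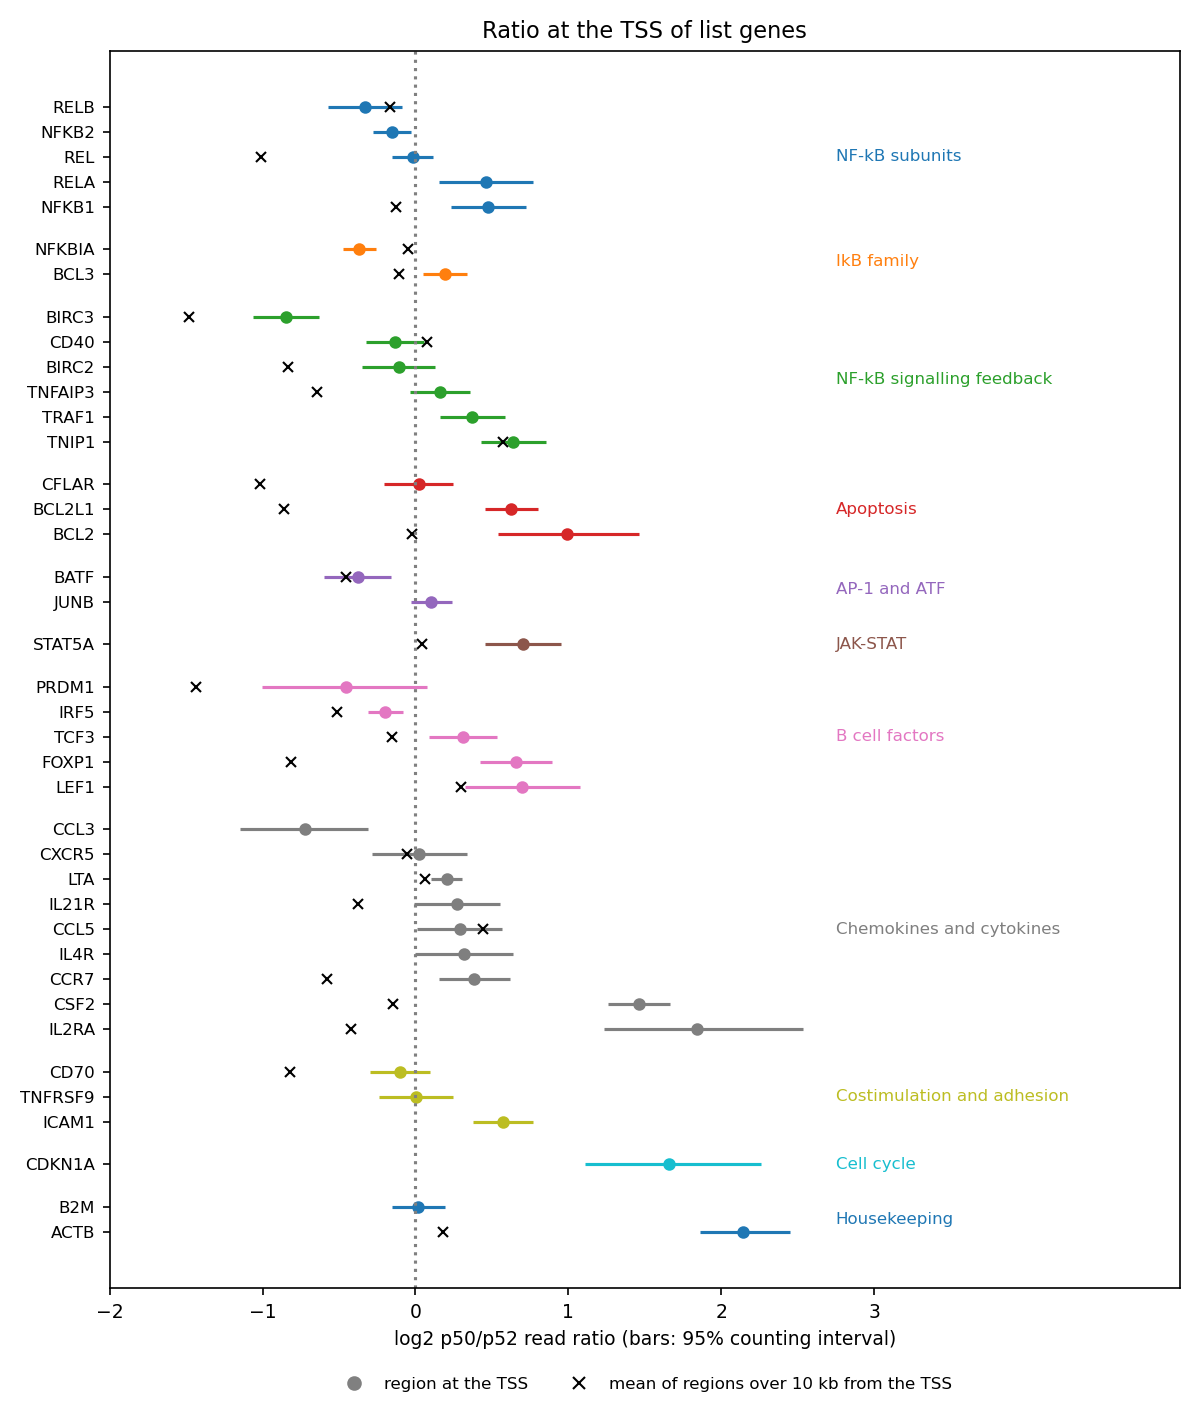
Log2 p50/p52 read ratio of the region at the TSS (dots, with 95% counting intervals) and mean ratio of the regions over 10 kb from the TSS (crosses, where there are any) for the listed genes with a region at the TSS, grouped by list. The dots of most genes lie between -0.5 and 0.75, with *CSF2*, *CDKN1A*, *IL2RA* and *ACTB* above 1 and *BIRC3* lowest, and most crosses lie to the left of their dot.

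The contrast between TSS and distant regions was also present within genes. In 751 genes with both kinds of region, the TSS ratio exceeded the mean of the distant regions by a median of 0.93 (0.82 to 0.99), with quartiles of 0.26 and 1.59. The TSS was higher in 611 genes (81.4%), by 1 or more in 345, and lower by 1 or more in 24. Among 182 genes with at least 3 distant regions and 50 reads in each region compared, the 5 largest differences included *ARHGAP17*, with 1.45 at the TSS and a mean of -0.96 over 3 distant regions. They also included *AEBP2*, a cofactor of the Polycomb complex PRC2, with 1.28 and -1.08 over 3 distant regions. The largest difference, in a gene without a matched symbol, was 2.55. The 5 genes with the lowest differences, none with a symbol, ran from -1.30 to -0.38. Of the 3112 genes with at least 2 regions, 295 (9.48%) held regions on both sides, and the median range within a gene was 1.27. The region nearest to a gene need not regulate it.

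Genes with many regions had medians on both sides of the median of all distant regions, -0.26. *ETS1* had the most regions of the genes with a symbol, 21 with a median of -0.64, and 17 of them were below 0. *PTGER4*, a prostaglandin E2 receptor gene, had 20 with a median of -0.80, and 16 were below 0, although its TSS region was at 0.18. *TNFAIP3* had 18 with a median of -0.64, and *FOXP1* 18 with a median of -0.95. *KCNMA1*, a potassium channel gene, and *ITPKB*, an inositol kinase gene, were nearer to 0, with medians of -0.23 over 19 and -0.19 over 18 regions. Some of the largest groups had no symbol. In 1 of them, with 22 regions, the median was 0.03, and 10 regions were below 0. In 32 regions on chr4:48787931-49354966 the median was -0.44, in 27 on chr10:41675961-41920595 it was -0.52, and in 20 on chr2:91632583-91688148 it was -0.55. All regions of these 3 groups had a RelB peak, against 26.8% of all regions. A RelB peak was also found in 97.9% and a RelA peak in 93.6% of 47 regions with high background, where the pileup was large relative to the fold enrichment. Input reads in the 3 groups were not analysed, so the part of non-specific reads in them was not tested.

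The 10 most p50-tilted regions with at least 100 reads had ratios from 2.87 to 3.38, and the 10 most p52-tilted from -4.61 to -2.36. None of the first had a p52 peak and none of the second a p50 peak, and these calls share their reads with the ratio. Of the p50-tilted regions 4 overlapped a TSS and 5 lay over 10 kb away, and of the p52-tilted none overlapped a TSS and 9 lay over 10 kb away. Of all 14865 regions 16.5% overlapped a TSS and 9262 lay over 10 kb away. The highest ratio was at chr14:23127940-23128445, with 142 p50 and 14 p52 reads and a ratio of 3.38 (2.69 to 4.26). The only region of the 10 with a gene symbol was a distant one nearest to the TSS of *ATBF1*, which encodes a zinc finger homeobox factor, with 235 and 34 reads (chr16:71255950-71256854, ratio 2.88). The lowest ratio was at chr6:149740700-149741894, inside a gene, with 6 p50 and 186 p52 reads and a ratio of -4.61 (-5.97 to -3.68). That region also held 80 RelA reads, more than any other of the 20, and no RelA peak was called in it. The next lowest, at chr16:19467180-19468028, had 14 p50 and 135 p52 reads and a ratio of -3.05 (-3.92 to -2.35).

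Chromosome 19, singled out after its value was seen, had the highest median of the chromosomes, 0.65 (0.57 to 0.78) over 634 regions. Its regions overlapped a TSS in 31.5%, against 16.5% of all regions. The shift was also seen away from promoters. Over 10 kb from a TSS, its 181 regions had a median of 0.36 (0.23 to 0.48), whereas those of all other chromosomes had -0.27 (-0.30 to -0.25). The next highest distant median was that of chromosome 22 with 0.09 (-0.09 to 0.31, n = 135), and the lowest that of the X chromosome with -0.52 (-0.68 to -0.37, n = 231). At TSS regions chromosome 19 was at 1.12 (0.99 to 1.25) against 0.98 (0.95 to 1.01). Distant regions on chromosome 19 had a median of 100 p50 and 87.2 p52 reads per kb, and a median width of 763 bp.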

How the data were processed

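L1236 ChIP-seq libraries for the 4 subunits (2 replicates each) and 6 input libraries were made by the authors. Alignment was with Bowtie against hg18. Reads with several matches and PCR duplicates (SAMtools) were dropped, and libraries were randomly thinned to a common size. They called peaks with MACS and joined overlapping peaks into regions. The deposited read counts are whole reads per region from merged replicates, not normalized, and the sources used here do not state whether they precede the thinning. The deposited fold enrichment is a ratio of ChIP to input at the summit, and a coverage signal, the pileup there, was deposited too. The deposited signal values are a score per replicate of unstated scale. The irreproducible discovery rate (IDR), deposited as a fraction, was below 0.01 in every p50 and p52 peak. Distances are to Ensembl version 54 genes, as given by the authors.

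The log2 ratio used a pseudocount of 1 read and library totals over all regions, with a fold of 1 on the log2 scale as the limit of a side. Since counts were merged, no test was run on them, and the replicate signal values were described without one. Intervals (95%) of medians are binomial order-statistic intervals over regions, and counting intervals of single regions are Wilson intervals of the p50 share of reads. Both leave out replicate error. Medians, ratios and intervals were tested on simulated data. Symbols came from tables of the study that pair them with Ensembl identifiers and from the coordinates of its primer list, for 1028 of 7652 identifiers of closest TSS, so that gene lists are partial. A gene's regions are those with its TSS as the closest.

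Genes were named by rule. For each list these were up to 5 genes with the most p50 and p52 reads at the TSS. *IL6* and *CD44*, which have no TSS region, were named outside this rule. In addition the 10 highest and lowest ratios at 100 or more reads, the 10 genes with most regions and the 5 largest within-gene differences in each direction were considered, and unmatched identifiers were left out. The members, lists and limits were chosen with earlier results of these data known. Peak q-values, input and expression data were not used. The values of 1 listed gene are not reported here. Promoters are from RefSeq (GRCh38.p14). A comparison of promoter base composition with the ratio was not made, because under 80% of named TSS regions matched a promoter. Software was scipy 1.17.1 and pandas 2.3.3 under Python 3.11.15, and figures were drawn with matplotlib 3.10.9.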

Additional observations from a re-analysis of the deposited data

How the results depend on the processing

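Values are log2 p50/p52 ratios unless stated otherwise. The difference between TSS regions and regions over 10 kb away (1.25) stayed positive under every alternative. It was 0.80 in the regions called for both subunits, and there 0.56 with fold enrichment, 0.57 with pileup and 0.53 to 1.12 with single replicate signal values. It was 1.66 in width quartile 2. The within-gene difference (0.93) also stayed positive, at 0.66 in regions called for both, 0.52 with fold enrichment, 0.49 with pileup, 0.33 to 0.95 with single signal values, and 1.35, 1.63 and 1.26 in width quartiles 1, 2 and 3, with 18, 29 and 64 genes. The p50 side (20.2%) shrank to 8.07% of regions called for both, 5.12% with fold enrichment and 7.34% with pileup, and was 18.2% to 20.0% with single signal values. The p52 side (13.5%) became 7.29%, 8.35%, 6.02% and 16.0% to 17.3%. Regions called for both leave out, by construction, those with a single call, which had the most tilted ratios.

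Results near 0 changed sign. Spearman's correlation of ratio and width (0.06) was -0.00120 with fold enrichment, -0.00478 with pileup, -0.123 to 0.0982 with single signal values, -0.100 in width quartile 1, -0.111 over 10 kb from a TSS and -0.316 at a TSS. The difference between the inside and the outside of genes (-0.04) was 0.000767 in regions called for both, -0.0672 to 0.0151 with single signal values, and -0.211, -0.00709 and 0.0345 in width quartiles 1, 3 and 4. The cause was not tested. Pseudocounts of 10 and 0.5 reads, other totals or centring, and a minimum of 50 reads moved these values by less than the SD of the 4 pairings or, for the shares, by less than 1.5 times. So did a limit of 50 kb for the 3 differences, and the removal of chromosomes X, Y and unplaced sequence for the TSS difference and both shares, the results for which they were run. So did, as alternatives chosen after seeing the data, the removal of 47 regions with high background for the TSS difference and both shares and, for the TSS difference, the removal of chromosome 19 or the restriction to regions without a p50 and p52 peak. No paired analysis was possible because the read counts carry no replicate and no test was run. Depth limits single regions more than medians, and antibody and subunit cannot be told apart.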
